A study of Homo sapiens with 6 samples.

Results

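The genes described here are 9 genes of MHC class I antigen presentation: the heavy chain genes HLA-B, HLA-C and HLA-E, the light chain gene B2M, the peptide transporter genes TAP1 and TAP2, TAPBP (tapasin), the immunoproteasome subunit gene PSMB9, and NLRC5. They were chosen by name, and all 9 were found among the 19923 gene rows of the count tables. Expression was measured by poly(A) RNA-seq in Kelly cells, an established MYCN-amplified human neuroblastoma line labelled wild type. Cells received a control siRNA (siControl) or an siRNA against METTL3 (siMETTL3), both delivered by the same lipid transfection reagent, and were collected after 72 hours. There were 3 libraries in each group, and the comparison asks how a partial loss of METTL3, the catalytic subunit of the mRNA m6A methyltransferase, changes expression in this single cell line. The labels do not say whether the replicates were separate cultures, so the p-values measure the spread between these libraries, which may be technical.

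MHC class I molecules carry peptides from the inside of the cell to its surface, where cytotoxic T cells read them. A class I molecule is a heavy chain bound to beta-2 microglobulin; peptides cut by the proteasome are pumped into the endoplasmic reticulum by the TAP1-TAP2 transporter and loaded with the help of tapasin, which bridges TAP and the heavy chain. NLRC5 is the transactivator of class I genes, and interferon induces most of the pathway. Neuroblastoma cells with amplified MYCN are known for low class I expression.

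The libraries held between 15430000 (siControl replicate 3) and 21565013 counts (siMETTL3 replicate 2). METTL3 itself had 1154, 1055 and 847 counts in siControl and 679, 692 and 705 in siMETTL3. Of its control level 61.0% remained (log2 fold change -0.71, SE 0.070, FDR 4.68e-06 in edgeR's quasi-likelihood test). Of the METTL3 span 7.9% overlaps TOX4, which had 1074, 931 and 794 counts in siControl and 880, 922 and 923 in siMETTL3. Reads in the shared bases are in both rows, and their part in the remaining METTL3 level was not tested. All 9 listed neuroblastoma markers, TH and MYCN among them, were expressed, with a summed level of 6095 to 6543 CPM (counts scaled to the library's size) in siControl and 8772 to 9334 CPM in siMETTL3. Of these 9, 6 were called higher and 1 lower, where 18.6% of all tested genes were called higher and 19.2% lower. All 8 leukocyte markers had at most 8 counts in every library (summed level 0.751 to 0.927 CPM in siControl and 0.597 to 0.925 CPM in siMETTL3). Of 8 fibroblast and endothelial markers, 3 (LUM, DCN and CDH5) had at most 8 counts in every library, and the summed level was 90.0 to 104.9 CPM in siControl and 94.2 to 101.7 CPM in siMETTL3. Most of that sum was PDGFRB, at 78.4 to 92.7 CPM in siControl and 80.3 to 86.9 CPM in siMETTL3. Of these 8, COL1A1 and VWF were higher in siMETTL3 (log2 fold changes 0.86 and 0.68, edgeR FDR 0.0200 and 0.00592). COL3A1 and PECAM1 had log2 fold changes of -0.64 and -0.95 and did not pass (edgeR FDR 0.0629 and 0.143), although their siMETTL3 libraries all lay below the siControl libraries. The part of these marker changes in the class I results was not tested. In bulk libraries such as these, fewer cells of a type and less RNA per cell cannot be told apart.

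The promoter sequences of the heavy chain genes and of B2M are shown first, because they carry the elements through which the pathway is known to be switched on together. Sequences are from RefSeq (GRCh38.p14), in which 7 of the 9 genes were matched (not HLA-E and NLRC5), and each window runs from 250 bases before to 50 bases after the start site. For these 3 genes only bases upstream of the gene span of the count tables and outside annotated untranslated regions are printed, 5′ to 3′ on the gene's strand: chr6:31272131-31272342 (minus strand) for HLA-C, chr6:31357294-31357429 (minus strand) for HLA-B and chr15:44711324-44711486 (plus strand) for B2M. Capitals mark matches, on either strand, to the interferon-stimulated response element in a short form, GAANNGAAA, or a long form (GAAA, any 2 bases, GAAA), to GGATTCNCC (an NF-kappaB element), TGACG (the core of the X2 element) and CCAAT (the Y box).
HLA-C: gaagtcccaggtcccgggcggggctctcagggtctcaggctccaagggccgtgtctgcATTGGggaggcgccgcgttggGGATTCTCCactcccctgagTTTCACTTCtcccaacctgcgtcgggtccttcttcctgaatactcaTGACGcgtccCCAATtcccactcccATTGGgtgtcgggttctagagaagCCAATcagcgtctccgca
HLA-B: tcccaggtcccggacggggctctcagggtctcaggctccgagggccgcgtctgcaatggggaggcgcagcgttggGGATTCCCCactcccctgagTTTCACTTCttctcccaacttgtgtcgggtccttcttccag
B2M: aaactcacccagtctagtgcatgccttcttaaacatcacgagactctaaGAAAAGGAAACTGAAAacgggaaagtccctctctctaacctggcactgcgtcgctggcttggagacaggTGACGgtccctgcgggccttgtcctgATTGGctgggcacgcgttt
For the other genes, stretches of 25 to 30 bases around the interferon element are enough to show it: chr6:33314077-33314106 for TAPBP, chr6:32838786-32838810 for TAP2 and chr6:32853817-32853846 for TAP1, all on the minus strand.
TAPBP: ctttggagGAAAGTGAAAGTGAAAggagga
TAP2: tggctgggGAAGCGAAAGCGAAAgc
TAP1: gcggccgcTTTCGATTTCGCTTTCccctaa
The HLA-B and HLA-C windows were 88.5% identical over an alignment of 304 columns, and in their full windows both held GAANNGAAA, GGATTCNCC, TGACG and CCAAT, the last in 3 copies for HLA-B and 4 for HLA-C. B2M held the long form, TGACG and CCAAT. TAP1, TAP2 and TAPBP held the long form, TAP2 the short form as well, and neither form of the interferon element was found in the PSMB9 window. Of 35116 RefSeq windows of the same length, 7.66% held GAANNGAAA, 3.57% the long form, 0.834% GGATTCNCC, 24.6% TGACG and 34.6% CCAAT, and the matches of the interferon forms can overlap each other. A match describes the letters only.

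HLA-C, TAPBP and NLRC5 were higher in siMETTL3, the row named HLA-B was lower, B2M and TAP2 did not pass the test, and HLA-E, TAP1 and PSMB9 had too few counts to be tested. Of the 6 tested genes, 3 were thus called higher and 1 lower, where 18.6% of the 15311 tested genes of the table were called higher and 19.2% lower (edgeR, FDR under 0.05). The 6 tested genes had at least 10 counts in every library, so that none passed the filter on low counts through 1 group alone. Their median log2 fold change was 0.50, beside -0.0021 over all tested genes. The groups did not overlap for 4 of the 6, with siMETTL3 above for 3 and below for 1; over all tested genes 49.9% did not overlap, 24.8% with siMETTL3 above and 25.1% below, and 37.8% were called in either direction.

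**Figure D1:**
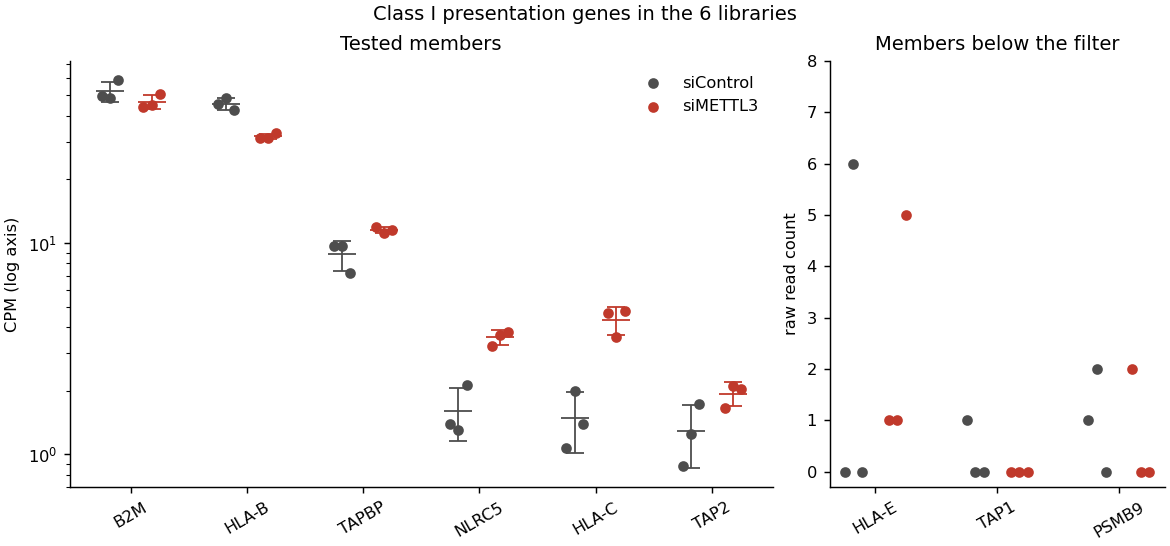
Expression of the 9 class I genes in each library. Left, CPM (log axis) of the 6 tested genes, points for libraries and bars for mean ± SD (n = 3); right, raw counts of the 3 genes below the filter, at most 6 in any library. The siMETTL3 points lie above all siControl points for TAPBP, NLRC5 and HLA-C and below them for HLA-B.

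HLA-C (chromosome 6, 31268749 to 31272130, minus strand) encodes a classical heavy chain that also serves as a ligand of natural killer cell receptors. It had 23, 40 and 21 counts in siControl and 96, 78 and 98 in siMETTL3. On the scale of CPM these are 1.07, 2.00 and 1.39 against 4.66, 3.58 and 4.77. The groups were well apart, with the lowest siMETTL3 library at 3.58 CPM against a highest control of 2.00 CPM. The mean rose from 1.49 ± 0.475 to 4.34 ± 0.658 CPM (SD, n = 3), or 2.91-fold (log2 fold change 1.54, SE 0.26, edgeR FDR 0.000391). Ordered by log2 fold change from the highest, HLA-C stood at position 146 of the 15311 tested genes. With any 1 library removed, the value stayed past the threshold and ranged from 1.32 to 1.83. A level of 1.49 CPM is low: 30.7% of the gene rows had a lower mean in siControl.

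The row named HLA-B needs to be read with its interval. In the count tables it spans 87698 bases (chromosome 6, 31269491 to 31357188, minus strand), and counts were taken over whole gene spans without regard to strand. In GENCODE release 44 the HLA-B gene has 13196 bases, of which 3317 lie in that interval and cover 3.78% of it. The interval also holds 2640 bases of HLA-C (78.1% of the HLA-C span), the processed pseudogenes USP8P1, RPL3P2 and WASF5P and the long noncoding RNA LINC02571. Because reads in overlapping genes went to all of them, HLA-C reads in the shared bases are in both rows. The tables do not say where in the interval the other reads lie. HLA-B, HLA-C and HLA-E are also close copies of one another, so that the assignment of their reads is uncertain.

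**Figure D2:**
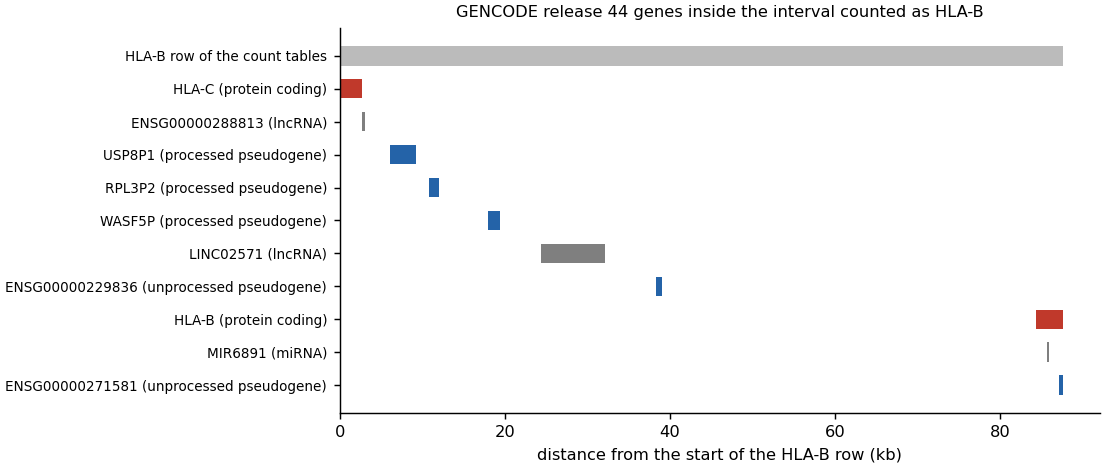
Genes of GENCODE release 44 inside the interval counted as HLA-B, by distance from its start in kb (gray, the whole row; red, HLA genes; blue, pseudogenes; dark gray, noncoding RNAs). The HLA-B gene lies at the far end of the 87698-base row and covers 3.78% of it, and HLA-C lies at the near end.

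The HLA-B row had 982, 974 and 644 counts in siControl and 648, 686 and 678 in siMETTL3. These are 45.5, 48.7 and 42.7 CPM against 31.5, 31.5 and 33.01 CPM. The groups did not overlap. The mean fell from 45.7 ± 3.01 to 32.00 ± 0.875 CPM (SD, n = 3; log2 fold change -0.51, SE 0.075, edgeR FDR 0.000142), so that 70.0% of the control level remained. All HLA-C counts were then taken off, the most that can be shared, since 78.1% of the HLA-C span lies in the row. After that, 959, 934 and 623 counts remained in siControl and 552, 608 and 580 in siMETTL3, and the log2 fold change was -0.68 (edgeR FDR 1.65e-05). RPL3, the ribosomal protein gene after which the pseudogene RPL3P2 in the interval is named, fell from 1437 ± 93.9 to 954 ± 18.0 CPM, a change of -0.59 on the log2 scale (edgeR FDR 7.97e-06). RPL3 was looked up after the values of HLA-B had been seen, and the part of RPL3P2 or of any other feature in the HLA-B row was not tested.

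HLA-E (chromosome 6, 30489509 to 30494194, plus strand) encodes a nonclassical heavy chain that presents leader peptides of other class I chains to natural killer cells. It had 0, 6 and 0 counts in siControl and 1, 1 and 5 in siMETTL3. These counts overlapped and were too low to be tested. A count of 0 allows a level of up to 0.139 CPM in siControl replicate 1 and 0.194 CPM in siControl replicate 3, limits of 3 counts of the library's total that cover counting error only. They treat counts as independent reads and are too low where both reads of a pair were counted: of the genes with 1 to 8 counts, 75.4% to 82.2% in each library had an even count.

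B2M (chromosome 15, 44711487 to 44718877, plus strand), the light chain shared by all class I molecules, had the highest level of the 9 genes. Its counts were 1066, 973 and 885 in siControl and 907, 974 and 1040 in siMETTL3. They correspond to 49.4, 48.7 and 58.7 CPM and to 44.1, 44.7 and 50.6 CPM. The groups overlapped, since siMETTL3 replicate 3 lay above siControl replicates 1 and 2. The means were 52.3 ± 5.60 and 46.5 ± 3.62 CPM (SD, n = 3), and the difference did not pass the threshold (log2 fold change -0.17, SE 0.085, edgeR FDR 0.144). Without siControl replicate 3, the shallowest library and the one with the highest B2M level, the log2 fold change was -0.079 (edgeR FDR 0.427). The heavy chain row HLA-C and the light chain B2M therefore had values on opposite sides of 0, at 1.54 and -0.17, with only the first past the threshold. The difference between them was not tested.

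Of the peptide transporter genes, TAP2 was detected in every library and TAP1 was almost absent. TAP2 (chromosome 6, 32821833 to 32838770, minus strand) had 19, 25 and 26 counts in siControl and 34, 46 and 42 in siMETTL3, or 0.881, 1.25 and 1.73 CPM against 1.65, 2.11 and 2.05 CPM. The groups overlapped at one place only, siControl replicate 3 above siMETTL3 replicate 1. The difference did not pass the threshold (log2 fold change 0.62, SE 0.31, edgeR FDR 0.127). It was past the threshold without siControl replicate 3 (0.86, edgeR FDR 0.0399) and 0.40 without siControl replicate 1 (edgeR FDR 0.351). The TAP2 span lies wholly inside a second row, AL669918.1, whose counts of 19, 27, 26, 34, 46 and 42 were nearly the same, so that reads of TAP2 and of this row cannot be told apart.

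TAP1 (chromosome 6, 32845209 to 32853978, minus strand) had 1 count in siControl replicate 1 and 0 in the other 5 libraries. PSMB9 (chromosome 6, 32844136 to 32859851, plus strand), the immunoproteasome subunit also known as LMP2, had 1, 2 and 0 counts in siControl and 2, 0 and 0 in siMETTL3. PSMB9 holds the whole TAP1 span, and the genes are known to share a bidirectional promoter. With the TAP1 count taken off, PSMB9 had 0, 2, 0, 2, 0 and 0 counts. In the siMETTL3 libraries a count of 0 allows up to 0.139 to 0.147 CPM, a limit that is too low in the same way. With at most 2 counts in any library, no direction can be given for TAP1 or PSMB9. PSMB8, the neighbouring immunoproteasome gene, had 1, 2 and 0 counts in siControl and 0 in all 3 siMETTL3 libraries. The chromosome 6 interval from HLA-E to TAPBP was not empty of counts as a whole: of its 127 other rows, 59 had a mean of at least 10 CPM in siControl. Of those 127 rows 88 were tested, 5 of them higher and 19 lower (median log2 fold change -0.057), beside the 18.6% higher and 19.2% lower over all tested genes.

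TAPBP (chromosome 6, 33299694 to 33314387, minus strand) had 208, 193 and 108 counts in siControl and 245, 242 and 237 in siMETTL3. These are 9.64, 9.66 and 7.17 CPM against 11.9, 11.1 and 11.54 CPM. The groups did not overlap, and siControl replicate 3 was the lowest library. The mean rose from 8.82 ± 1.43 to 11.52 ± 0.395 CPM (SD, n = 3; log2 fold change 0.37, SE 0.13, edgeR FDR 0.0407). The call was lost in 5 of the 6 fits that left out a library, all but that without siControl replicate 1. The FDR was 0.0530 without siControl replicate 2, 0.124 without siControl replicate 3, and 0.126, 0.0821 and 0.101 without siMETTL3 replicates 1, 2 and 3. The log2 fold change was 0.25 without siControl replicate 3, 0.44 without siControl replicate 2 and 0.35 to 0.40 without a siMETTL3 library.

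NLRC5 (chromosome 16, 56989485 to 57083531, plus strand), the class I transactivator, had 30, 26 and 32 counts in siControl and 67, 80 and 78 in siMETTL3. These are 1.39, 1.30 and 2.12 CPM against 3.26, 3.67 and 3.80 CPM. The groups did not overlap, and siControl replicate 3 came nearest to the siMETTL3 libraries. The mean rose from 1.61 ± 0.451 to 3.58 ± 0.284 CPM (SD, n = 3), or 2.27-fold (log2 fold change 1.18, SE 0.25, edgeR FDR 0.00197). With any 1 library removed it ranged from 1.05 to 1.40 and stayed past the threshold, with an edgeR FDR of at most 0.0144. NLRC5 stood at position 303 from the highest of the 15311 log2 fold changes. Its span of 94047 bases is mostly intron, and any reads of unspliced RNA would be part of its count. Their share is not known.

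**Figure D3:**
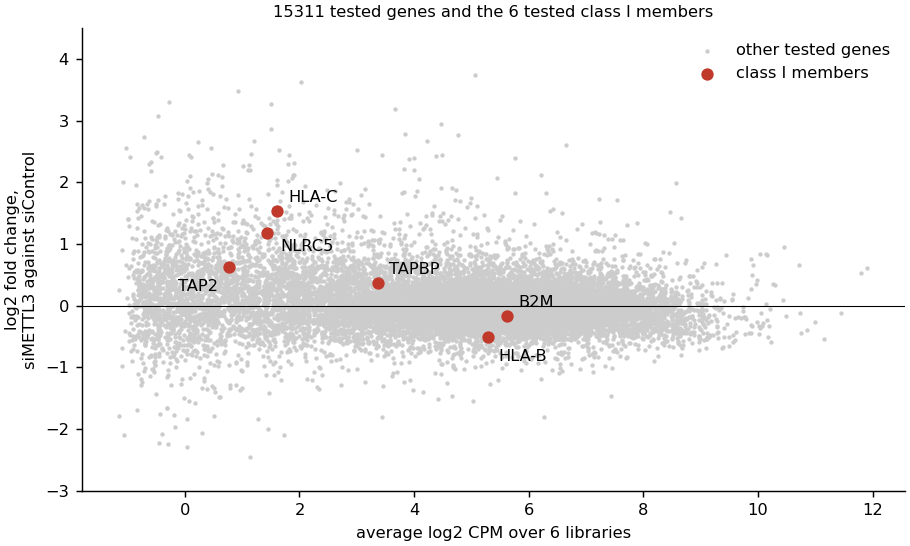
Log2 fold change of siMETTL3 against siControl (vertical axis) against average log2 CPM over 6 libraries for the 15311 tested genes (gray) and the 6 tested class I genes (red). HLA-C at 1.54 and NLRC5 at 1.18 lie in the upper part of the cloud at low expression, and HLA-B at -0.51 lies in its lower part.

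**Figure D4:**
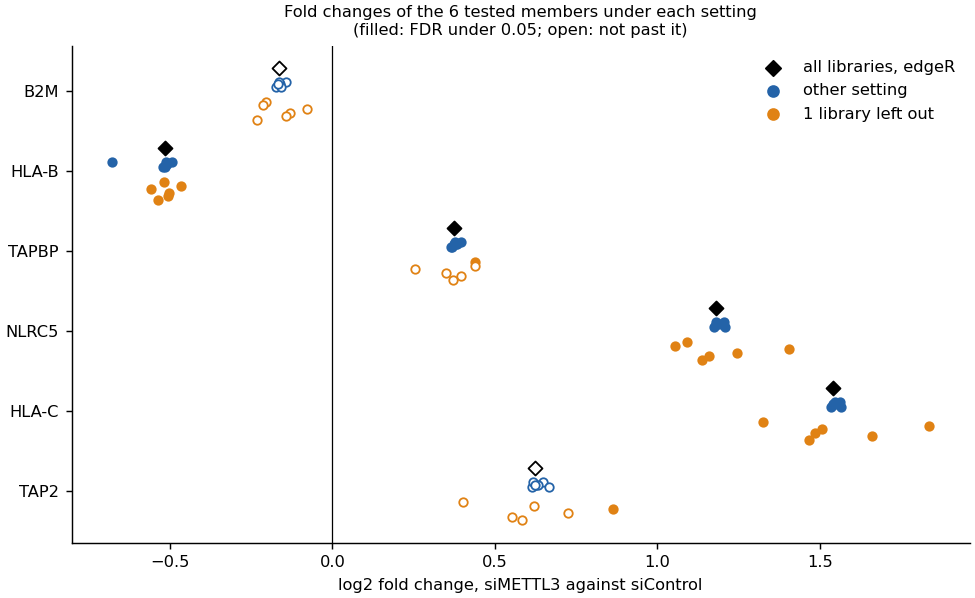
Log2 fold change of the 6 tested class I genes in the reported fit (black), in other settings (blue) and with 1 library left out (orange); filled points are past an FDR of 0.05. HLA-C, NLRC5 and HLA-B are filled throughout, TAPBP is open in 5 of 6 fits that left out a library, and the isolated blue point of HLA-B at -0.68 is the count less that of HLA-C.

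Levels between genes were compared as mean CPM per kb of merged exons (GENCODE release 44). In siControl the order was B2M (16.8 ± 1.79 CPM per kb), the HLA-B row (9.88 ± 0.650), TAPBP (1.33 ± 0.216), HLA-C (0.593 ± 0.189), NLRC5 (0.130 ± 0.0364), TAP2 (0.124 ± 0.0409), HLA-E (0.0343 ± 0.0593), PSMB9 (0.0146 ± 0.0150) and TAP1 (0.00326 ± 0.00565; all SD, n = 3). On this scale NLRC5 and TAP2 did not differ beyond their spread, nor did HLA-E, PSMB9 and TAP1. In siMETTL3, HLA-C (1.73 ± 0.262 CPM per kb) reached the level of TAPBP (1.73 ± 0.0595), and both stayed below B2M (14.9 ± 1.16). The HLA-B value rests on reads of an interval much longer than its exons. The exon length used for it, 4623 bases, is that of the whole release 44 gene. That gene extends beyond the row, so that exons outside the counted interval can be included. Per kb of the span in the tables, HLA-B fell to 0.521 ± 0.0343 CPM per kb in siControl, between TAPBP (0.600 ± 0.0976) and HLA-C (0.440 ± 0.140), and B2M stayed first (7.07 ± 0.757). On the same scale in siMETTL3, HLA-C (1.28 ± 0.195) lay above TAPBP (0.784 ± 0.0269). The equal level of HLA-C and TAPBP in siMETTL3 thus holds for exon length only. So does the likeness of NLRC5 and TAP2 in siControl. Per kb of span NLRC5 was at 0.0171 ± 0.00480 and TAP2 at 0.0759 ± 0.0250 CPM per kb. The HLA-E mean (0.0214 ± 0.0370) then lay above that of NLRC5, within its own spread.

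The rest of the pathway was read from 6 lists of 68 genes, of which 52 were tested. Of these, 2 were higher and 12 were lower (edgeR, FDR under 0.05; median log2 fold change -0.099). Without any 1 of the siMETTL3 libraries, 1 was higher, and without siControl replicate 1 or 3, 3 were higher. The shares over all tested genes are those given above, 18.6% higher and 19.2% lower.

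Among genes of peptide generation and trimming, 2 of 10 tested were higher and 3 lower (median log2 fold change -0.063), beside 18.6% and 19.2% over all tested genes. NPEPPS, the puromycin-sensitive aminopeptidase, rose from 92.5 ± 0.704 to 113 ± 3.92 CPM (log2 fold change 0.29, SE 0.056, edgeR FDR 0.00112). BLMH, bleomycin hydrolase, was the other gene called higher (log2 fold change 0.24, SE 0.077, edgeR FDR 0.0260). Its call was lost without any 1 of the siMETTL3 libraries, where NPEPPS was still called. PSME2, a subunit of the interferon-inducible proteasome activator PA28, fell from 20.4 ± 2.36 to 14.2 ± 0.961 CPM (log2 fold change -0.51, SE 0.11, edgeR FDR 0.00245); 21.1% of its span overlaps RNF31. ERAP1, which trims peptides in the endoplasmic reticulum to the length that fits class I, fell from 46.0 ± 3.67 to 35.04 ± 2.92 CPM (log2 fold change -0.39, SE 0.085, edgeR FDR 0.00274). Of the ERAP1 span 39.7% overlaps CAST, which was lower as well (log2 fold change -0.28, edgeR FDR 0.0216). PSME3, the nuclear activator subunit, had a log2 fold change of -0.21, and 46.3% of its span overlaps BECN1. Its call was lost without siMETTL3 replicate 1 (edgeR FDR 0.0571). PSMB10, the third immunoproteasome subunit, was measured at 13.99 ± 0.970 and 11.2 ± 1.78 CPM and did not pass (log2 fold change -0.32, edgeR FDR 0.0622). It passed without siControl replicate 3 (edgeR FDR 0.0212), without siMETTL3 replicate 1 (edgeR FDR 0.0273) and with the replicate number as a block (edgeR FDR 0.0463); 64.1% of its span overlaps the row AC040162.1.

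The catalytic subunits that the immunoproteasome subunits replace were far more abundant. PSMB5 fell from 140 ± 3.66 to 119 ± 3.43 CPM (log2 fold change -0.23, SE 0.055, edgeR FDR 0.00460) and PSMB6, the constitutive counterpart of PSMB9, from 84.4 ± 4.90 to 62.8 ± 1.64 CPM (log2 fold change -0.42, SE 0.063, edgeR FDR 0.000162). PSMB7 did not pass (log2 fold change -0.095, edgeR FDR 0.190). PSMB6 thus had between 61.2 and 90.0 CPM in each library, where PSMB9 had at most 2 counts.

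The chaperones and glycan enzymes of class I assembly, of which all 9 were tested, held 1 gene past the threshold (median log2 fold change -0.078). That gene was GANAB, glucosidase II alpha, at -0.16 on the log2 scale (edgeR FDR 0.0302). The GANAB call was lost when siControl replicate 2 was removed (edgeR FDR 0.0985), when replicate 2 or 3 of siMETTL3 was (0.132 and 0.119), and with total count scaling (edgeR FDR 0.0563). CALR, calreticulin, a component of the peptide-loading complex, was measured at 440 ± 10.7 and 448 ± 18.1 CPM, with a log2 fold change of 0.026 and an SE of 0.056 (edgeR FDR 0.748).

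Of the 12 class I-like molecules 5 were tested, and another 5, HLA-F, HLA-G, MICA, CD1D and AZGP1, had at most 8 counts in every library. ULBP1, a ligand of the natural killer receptor NKG2D, was the gene that passed. Its counts were 78, 79 and 66 in siControl and 38, 51 and 26 in siMETTL3, with no overlap between the groups. It fell from 3.98 ± 0.383 to 1.82 ± 0.539 CPM (log2 fold change -1.12, SE 0.24, edgeR FDR 0.00270).

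Of 22 factors that bind class I promoters or carry interferon signals, all were tested and 5 were lower (median log2 fold change -0.096), near the share of 19.2% over all tested genes. RFX5, a subunit of the complex at the X box of MHC promoters, fell from 57.8 ± 2.58 to 45.4 ± 1.90 CPM (log2 fold change -0.35, SE 0.068, edgeR FDR 0.00120). TYK2, a kinase of the type I interferon receptor, fell from 63.1 ± 3.598 to 46.2 ± 4.18 CPM, a change of -0.45 on the log2 scale (edgeR FDR 0.000483). STAT2 had a log2 fold change of -0.39 (edgeR FDR 0.0172) and was no longer past the threshold in 5 of the 6 fits that left out a library, all but that without siControl replicate 3 (edgeR FDR 0.0519 to 0.0666). Its log2 fold change was -0.25 without siControl replicate 1, the library in which it was highest. JAK1, another kinase of interferon receptors, was lower too (log2 fold change -0.14, edgeR FDR 0.0471). IRF1, an interferon-induced activator of class I genes, had 66, 68 and 28 counts in siControl and 49, 60 and 54 in siMETTL3, and it did not pass (log2 fold change -0.12, SE 0.25, edgeR FDR 0.740). Its span lies wholly inside the row AC116366.3.

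Class II presentation genes served as a check for antigen-presenting cells. HLA-DRA, HLA-DQA1, HLA-DQB1 and HLA-DMB had 0 counts in every library, and 3 of the 11 genes were tested. CD74, the invariant chain, was measured at 6.73 ± 0.600 and 7.98 ± 0.471 CPM (log2 fold change 0.24, edgeR FDR 0.195), and HLA-DMA had a log2 fold change of -0.13 (edgeR FDR 0.646). Of the CD74 span 2.08% overlaps TCOF1 (1013 to 1822 counts), and of the HLA-DMA span 2.45% overlaps BRD2 (2403 to 3862 counts). The part of reads from these abundant neighbours in the CD74 and HLA-DMA rows was not tested. CIITA, the class II transactivator related to NLRC5, had a log2 fold change of -0.18 (edgeR FDR 0.151, and 0.0272 without siControl replicate 1). Its span holds the whole of DEXI, and with the DEXI counts taken off 10, 10 and 6 counts remained in siControl and 7, 26 and 4 in siMETTL3, too few to pass the filter. The CIITA row is thus almost entirely reads over DEXI.

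**Figure D5:**
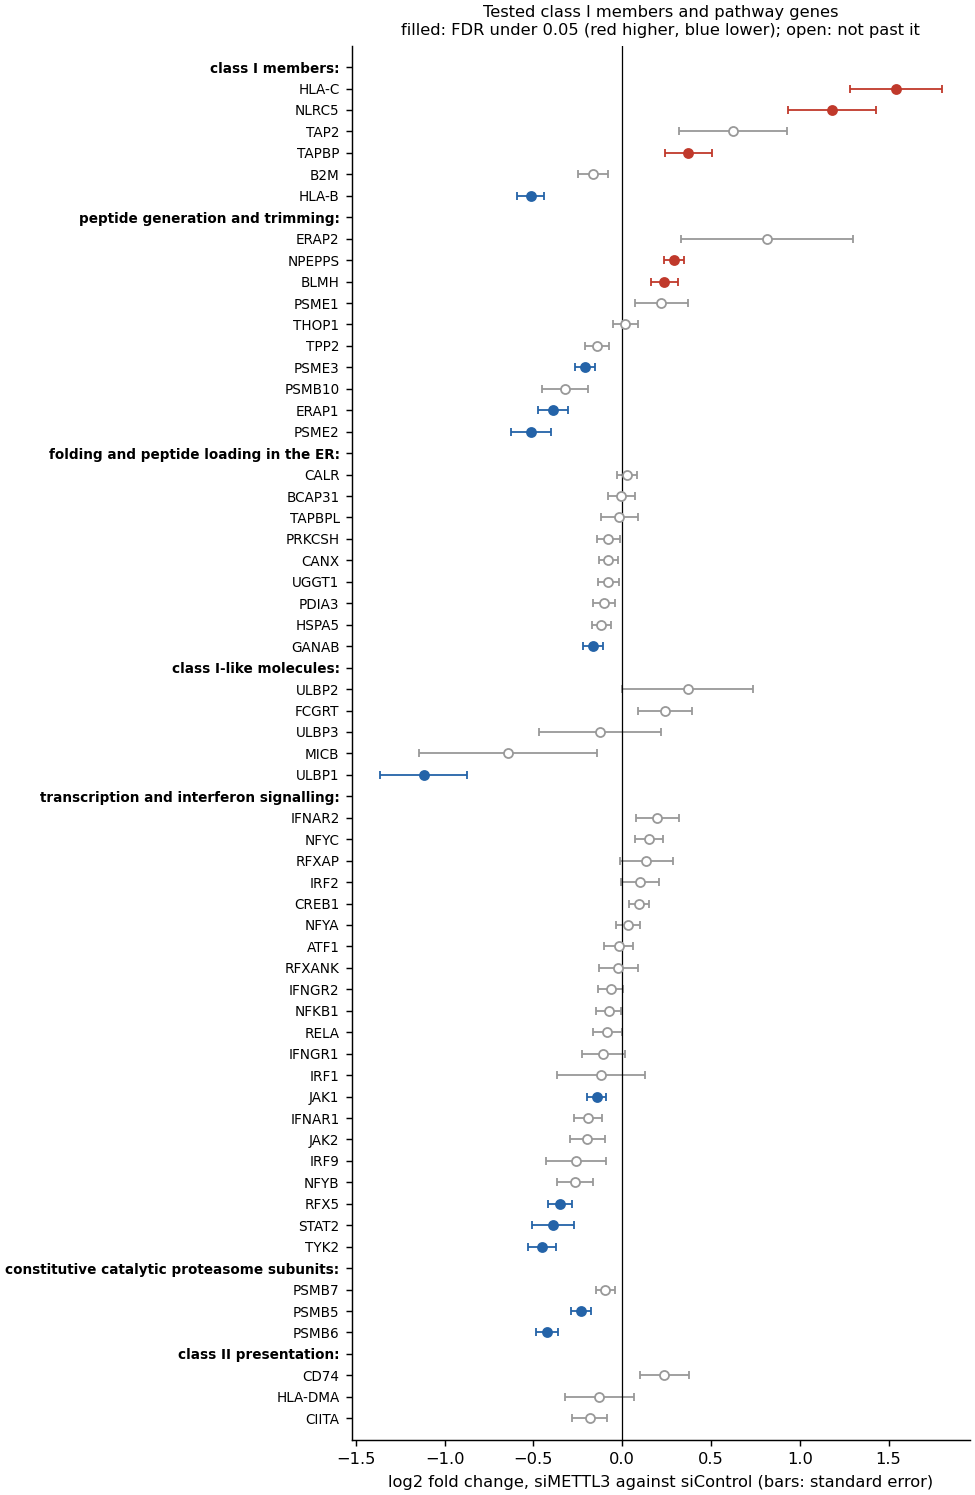
Log2 fold changes of siMETTL3 against siControl with their standard errors (horizontal axis) for the tested class I genes and 51 of the 52 tested genes of the 6 pathway lists, by list. Filled red and blue points are past an FDR of 0.05 and higher or lower; 3 class I genes and 2 pathway genes are red, and 1 class I gene and 11 pathway genes are blue.

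The genes with the most similar profiles were found from the root mean square difference of mean-centred log2 CPM over the 6 libraries, among 11761 other genes whose log2 CPM averaged 3 or more. For HLA-C they were GPR139, IL12RB2 and SLC66A3, at differences of 0.166 to 0.207. For the HLA-B row they were NUDT11, SPOUT1 and SLC19A2, at 0.0225 to 0.0319, and for B2M they were SPOCK3, THOC7 and SATB1, at 0.0261 to 0.0347. HLA-E was too low for such a comparison. The matched genes had log2 fold changes of 1.36 to 1.47 for HLA-C, -0.52 to -0.48 for HLA-B and -0.21 to -0.18 for B2M. The measure includes the difference between the groups, so that genes with a like fold change come out close. These likenesses are descriptions over 6 libraries. The log2 CPM of HLA-C averaged 1.62, below the limit of 3 for the compared genes, so that its differences cannot be set beside those of HLA-B and B2M.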

How the data were processed

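Raw read counts per gene were deposited, 1 table for each of the 6 libraries (siControl and siMETTL3, 3 each, groups and replicate numbers from the titles). Per the file headers, the authors counted with featureCounts 1.5.3 on a GENCODE release 33 annotation over whole gene spans, introns included, with reads over several genes counted for each, with no option set for strand, multi-mapping reads or joined read pairs. The names of the alignment files in those headers contain input and picard; what was done under these names is not given in the sources used here. The submitters' processing notes name Trimmomatic 0.36, HISAT2 2.1.0 and GRCh38. GENCODE release 44, used here for exon lengths, is on GRCh38 too: 19065 of 19067 spans compared overlapped the gene of the same symbol.

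filterByExpr kept 15311 genes, and TMM factors scaled the libraries. The test was edgeR 4.0.16's quasi-likelihood F-test (R 4.3.3, robust, all 6 libraries, no covariate), with Benjamini-Hochberg adjustment (FDR) over all tested genes and a threshold of 0.05. The SE is the absolute log2 fold change over the square root of F. The fits were tested on simulated data. CPM values use TMM-scaled library sizes. Between libraries of 1 group the chi-square over degrees of freedom was 3.11 to 16.9, so none was a copy of another. Sampling noise alone gives a higher value where both reads of a pair were counted. The chi-square therefore cannot tell technical repeats from separate cultures. The members, lists and naming rule were chosen with earlier results of these data known. Named were all 9 class I genes, METTL3, and up to 4 called genes per list in order of FDR. IRF1, RFX5, PSMB8, PSMB10, CALR, ERAP1 and CIITA were named whatever their result. RPL3, CAST, DEXI, BLMH, JAK1, PSMB7, CD74, HLA-DMA, COL3A1, PECAM1 and PDGFRB were named after their values were seen. So were TOX4, TCOF1, BRD2 and the genes named only at 0 or as markers. Alternatives were RLE and total count scaling, no filter on low counts or a stricter one (10 counts or more in all libraries), limma-voom (limma 3.58.1), DESeq2 1.42.0, a block for the replicate number, leaving out each library, the TAP1 count taken off PSMB9, and, added after the data had been seen, the HLA-C count taken off HLA-B and DEXI taken off CIITA. Some items counted in the lists are not reported here by name.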

Additional observations from a re-analysis of the deposited data

How the results depend on the processing

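The number of class I genes called higher was 3 and lower was 1 with RLE and total count scaling, without a filter, with at least 10 counts in every library, in DESeq2, in limma-voom and with the replicate block. Either subtraction for class I rows gave the same numbers but could not test them. PSMB9 stayed below the filter, and a rising HLA-C count taken off the falling HLA-B row can only lower its fold change. With 1 library removed at a time, 2 to 3 were higher and 1 was lower; without siControl replicate 3 the 3 higher genes were HLA-C, NLRC5 and TAP2. Genes of the pathway lists past the threshold numbered 10 to 20 in those fits, against 14 with all libraries, and 12 to 16 in the other settings; those higher numbered 1 without each siMETTL3 library and 3 without siControl replicate 1 or 3, against 2. Signs changed for IRF1 without siControl replicate 2 (log2 fold change 0.044, range -0.32 to 0.044) and CALR without siMETTL3 replicate 2 (-0.0083, range -0.0083 to 0.052); neither passed the threshold in any setting. The labels do not say whether replicate numbers pair the libraries. Deviations of same-numbered libraries correlated only weakly, at 0.040, 0.049 and 0.067. Every library still correlated best with its own number, which is a hint from the data and not from the design. With the replicate block 6166 genes were called, HLA-C had a log2 fold change of 1.54, NLRC5 1.18, TAPBP 0.38 and HLA-B -0.51, and of the 23 genes followed only PSMB10 changed its call. The highest FDR over all settings was 0.00434 for HLA-C, 0.0144 for NLRC5, 0.00223 for HLA-B and 0.126 for TAPBP. Depth limits HLA-E, TAP1 and PSMB9, for which no direction can be given.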
